A study of Homo sapiens with 3 samples.

Results

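The genes described here encode the MCM helicase and the proteins that license replication origins: *MCM2*, *MCM3*, *MCM4*, *MCM5*, *MCM6*, *MCM7*, *MCM10*, *CDC6*, *CDT1* and *ORC1*. They were taken as every array probe whose RefSeq accession belongs to one of these gene symbols, which gave 12 probes for the 10 genes, out of 58201 probes and 18216 protein-coding genes with a probe. The rule uses accessions and no signal, though the list of genes was drawn up with earlier results of these data known. *MCM5* and *MCM7* had 2 probes each and the other 8 genes had 1.

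Expression was measured in A549 cells, an established line from a human lung adenocarcinoma, on 3 Agilent arrays of 1 colour, with 1 array for each condition. All cells received the transfection reagent Lipofectamine RNAiMAX. The mock cells received the reagent and no precursor, and the other cells received a precursor of *miR-139-5p* or of *miR-139-3p* at 10 nM. The comparisons ask which transcripts were lower or higher after transfection of either strand of *miR-139*. The model is 1 cell line with 1 RNA sample per condition, so no difference has a replicate check and no test was made. Slide 1 held the arrays of mock and *miR-139-5p* cells and slide 2 held that of *miR-139-3p* cells, so slide and transfection cannot be told apart for *miR-139-3p*. In such bulk RNA, fewer cells of a type and less RNA per cell cannot be told apart either.

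Before S phase, the origin recognition complex, of which ORC1 is an ATPase subunit, binds DNA and recruits CDC6. Together with CDT1 they load the MCM ring, built of the MCM2, MCM3, MCM4, MCM5, MCM6 and MCM7 proteins, around the double strand, which licenses the origin. In S phase, CDC7 and cyclin-dependent kinases recruit CDC45 and the GINS complex to the ring, MCM10 helps to switch it on, and the active helicase unwinds DNA ahead of the polymerases. Dividing cells express these genes strongly and resting cells express them weakly, and E2F transcription factors are known to drive many of them.

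The transfected RNAs are the 2 arms of 1 hairpin. Their mature sequences, from RefSeq on GRCh38.p14, are shown because the arms share no seed, the part that pairs with target transcripts. The capitals mark the seed, bases 2 to 8 counted from 1 at the 5′ end. The *miR-139-5p* arm lies at chr11:72615102-72615124 on the minus strand and the *miR-139-3p* arm at chr11:72615066-72615088 on the same strand, and each has 23 bases.
hsa-miR-139-5p: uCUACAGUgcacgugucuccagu
hsa-miR-139-3p: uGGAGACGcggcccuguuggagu
Transcript sequences were not used here, so matches to these seeds in the members were not searched.

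The promoters of the members are shown where they hold letters known as E2F sites. RefSeq promoter windows of 300 bases, from 250 before the start to 50 after it, were available here for 8 of the 10 members (*MCM4* and *MCM5* were not in the table). The spellings searched on both strands were TTTCCCGC, TTTGGCGC, TTTCGCGC and TTTGCCGC, and matches may overlap. At least 1 of them stood in the windows of 6 of the 8 members, namely *MCM2*, *MCM3*, *MCM6*, *MCM7*, *CDC6* and *CDT1*, and in none of those of *ORC1* and *MCM10*. Over all protein-coding genes in the table the share was 5.40%, or 855 of 15843, and over the 22199 promoters of these genes it was 4.10%. In the stretches below, read 5′ to 3′ on the strand of the gene, capitals mark these spellings on either strand.
MCM2, chr3:127598383-127598424, plus strand: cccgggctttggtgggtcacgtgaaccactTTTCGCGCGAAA
MCM3, chr6:52284739-52284776, minus strand: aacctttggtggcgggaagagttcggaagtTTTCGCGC
MCM6, chr2:135876492-135876625, minus strand: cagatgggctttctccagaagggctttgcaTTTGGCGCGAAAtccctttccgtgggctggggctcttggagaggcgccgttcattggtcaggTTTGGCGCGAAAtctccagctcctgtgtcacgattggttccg
MCM7, chr7:100101398-100101436, minus strand: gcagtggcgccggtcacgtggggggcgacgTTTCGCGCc
CDC6, chr17:40287856-40287893, plus strand: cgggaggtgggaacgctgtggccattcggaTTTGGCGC
CDT1, chr16:88803724-88803788, plus strand: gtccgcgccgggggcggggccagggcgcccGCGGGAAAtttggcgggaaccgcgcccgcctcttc
In *MCM2* and *MCM6* the capitals hold overlapping matches on both strands, 2 in *MCM2* and 4 in *MCM6*. The windows of *MCM3* and *MCM7* hold 1 more spelling each, farther from the start. CCAAT, the letters bound by NF-Y, stood on either strand in 6 of the 8 members, beside 42.1% of genes and 34.7% of promoters. TTTGAA, known as the cell cycle homology region, stood in 0 of the 8 members, beside 15.8% of genes and 12.4% of promoters. A match describes letters only.

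Every member probe was well above background on all 3 arrays, so each member has a measured difference in each comparison and none rests on a bound. Over the arrays, between 48.1% and 53.1% of spots were well above background and 0 were saturated. Signals are processed intensities, with the background subtracted. Differences are on the log2 scale after dividing each array by its 75th percentile of signal, which was 93.0 in mock, 88.2 after *miR-139-5p* and 80.5 after *miR-139-3p*. The error given with a difference is the scanner software's signal error of both arrays combined. For bright probes this error was close to a fixed share of the signal, so most member differences carry the same 0.20. It holds no spread between cultures, and it is not the spread between spots given next. Between spots of one probe on one array, the median SD was 0.048 to 0.058 on the log2 scale. Of 9 genes listed as A549 or lung epithelial markers, the 8 with a probe were well above background on all 3 arrays, with a summed signal of 255076 in mock, 212063 after *miR-139-5p* and 137569 after *miR-139-3p*. Keratins and aldo-keto reductases carry most of that sum, and *EPCAM* ran the other way, from 218 in mock to 233 after *miR-139-5p* and 369 after *miR-139-3p*. Of 5 markers of other cells, *PTPRC* and *COL1A1* were above background and *PECAM1*, *COL3A1* and *ALB* were not, and the summed signal was 54.5, 116 and 46.2 in the order mock, *miR-139-5p*, *miR-139-3p*. Of it, *COL1A1* gave 40.1, 101 and 22.7, and *PTPRC* gave 10.3, 10.2 and 20.1. Whether these levels bear on the members was not tested.

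After *miR-139-3p* transfection, all 10 members were lower than in mock cells, to between 13.2% and 46.9% of the mock level. After *miR-139-5p* transfection, *MCM2*, *MCM5*, *ORC1* and *CDC6* were lower, to between 61.1% and 70.1%, and the other 6 lay between 83.9% and 120%. A difference of more than 0.5 on the log2 scale was counted as lower or higher. Of all protein-coding genes with a value, 30.3% were lower by that measure and 23.2% higher after *miR-139-3p*, against 10 of 10 and 0 of 10 members. After *miR-139-5p*, 12.2% were lower and 10.6% higher, against 4 of 10 and 0 of 10 members. With the normexp background model the shares over all genes were 21.0% and 9.10% after *miR-139-3p*, against 9 and 0 members. They were 4.44% and 3.70% after *miR-139-5p*, against 2 and 0 members. With scaling to spike-in RNA, 8.02% of genes were lower after *miR-139-5p*, again against 2 members, *MCM2* and *MCM5*. That scaling put 40.0% of genes lower after *miR-139-3p*, against 10 members. The median over members was -1.70 for *miR-139-3p*, where the median over all measured genes was -0.15, and -0.19 for *miR-139-5p*, where it was 0.00. Both comparisons share the mock array. *MCM2* and *ORC1* are in the study's own list of candidate targets, chosen in part on lower signal on these arrays, so their direction is not independent evidence. The other 8 members were lower after *miR-139-3p* as well. They were read on the same arrays, and the list of members was drawn up with earlier results of these data known. Their direction is therefore not independent evidence either.

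**Figure D1:**
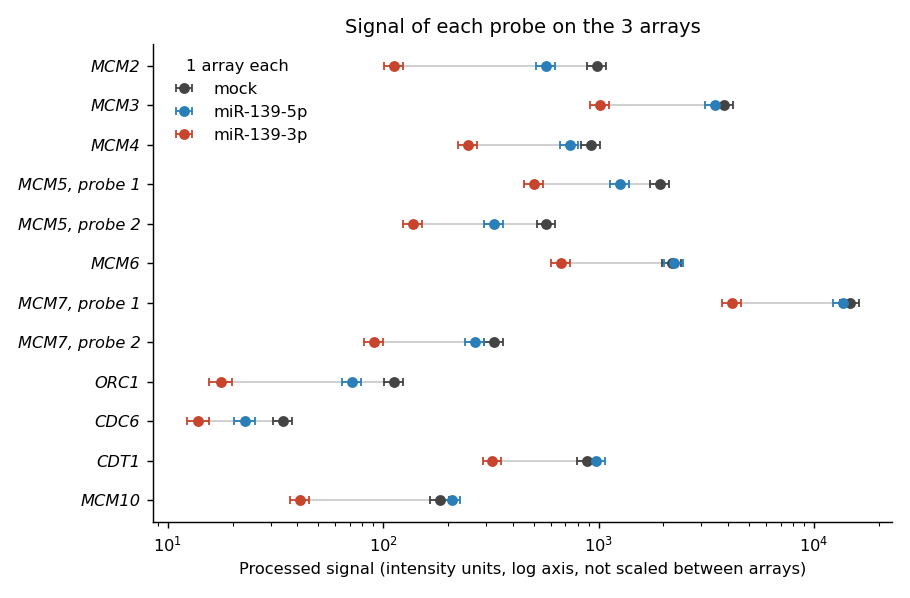
Processed signal (log axis, intensity units, not scaled between arrays) of the 12 probes of the 10 members on each of the 3 arrays (mock, then *miR-139-5p*, then *miR-139-3p* transfection), 1 array per condition; bars are the signal error of the scanner software. For every probe the *miR-139-3p* signal is the lowest of the 3, from 13.9 for *CDC6* to 4152 for *MCM7* probe 1.

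The largest fall in the MCM ring was that of *MCM2*, whose protein also binds histones at the fork. Its probe read 986 in mock, 572 after *miR-139-5p* and 112 after *miR-139-3p*. The difference from mock was -2.92 ± 0.20 (error, 1 array per condition) after *miR-139-3p*, or 7.59-fold lower, and -0.71 ± 0.20 after *miR-139-5p*. The 3 arrays thus stood apart from each other in steps larger than that error, which says nothing of the spread between cultures. Ranked from the lowest difference after *miR-139-3p*, *MCM2* was gene 29 of 12970 measured genes.

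*MCM3* encodes the subunit by which the ring docks on the loading complex. Its signals were 3823 in mock, 3477 after *miR-139-5p* and 1012 after *miR-139-3p*. Mock and *miR-139-5p* were within the error of each other, with a difference of -0.06 ± 0.20, and *miR-139-3p* was lower by -1.71 ± 0.20. The sign of the small *miR-139-5p* difference turned under other scaling, between -0.14 and 0.06.

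*MCM4*, a subunit that CDC7 phosphorylates, read 921 in mock, 733 after *miR-139-5p* and 247 after *miR-139-3p*. Its difference from mock was -1.69 ± 0.20 after *miR-139-3p*. After *miR-139-5p* it was -0.25 ± 0.20, past the error and short of the threshold.

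*MCM5*, which closes the ring against MCM2, was the only ring subunit besides *MCM2* past the threshold in both comparisons. Probe 1 read 1920 in mock, 1254 after *miR-139-5p* and 499.5 after *miR-139-3p*, and probe 2 read 573, 327 and 138. Both probes put mock highest and *miR-139-3p* lowest. The mean over the probes was -1.79 with an SD of 0.081 between probes after *miR-139-3p*, and -0.64 with an SD of 0.137 after *miR-139-5p* (2 probes).

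*MCM6*, the subunit that holds CDT1 during loading, read 2198 in mock, 2233 after *miR-139-5p* and 669 after *miR-139-3p*. Mock and *miR-139-5p* did not differ beyond the error, at 0.10 ± 0.20. After *miR-139-3p* the difference was -1.51 ± 0.20.

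*MCM7*, which with MCM4 and MCM6 forms the part of the ring long known to unwind DNA alone, was read by 2 probes. Probe 1 read 14689 in mock, 13583 after *miR-139-5p* and 4152 after *miR-139-3p*, and probe 2 read 326, 266 and 90.2. Their differences after *miR-139-3p* lay close together, with a mean of -1.63 and an SD of 0.021 between probes. Over 3523 genes with several probes, the median of this SD was 0.27. After *miR-139-5p* the mean was -0.13, with -0.04 ± 0.20 for probe 1 and -0.22 ± 0.20 for probe 2.

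Over the 6 subunits of the ring, the differences spanned 1.42 after *miR-139-3p*, with an SD of 0.52 over the genes, and 0.81 after *miR-139-5p*, with an SD of 0.32. *MCM2* was apart from the others after *miR-139-3p*. The 5 others, picked out after their values were seen, lay between -1.79 and -1.51, with a median level of 31.0% of mock. The ring median was -1.70 after *miR-139-3p* and -0.19 after *miR-139-5p*.

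**Figure D2:**
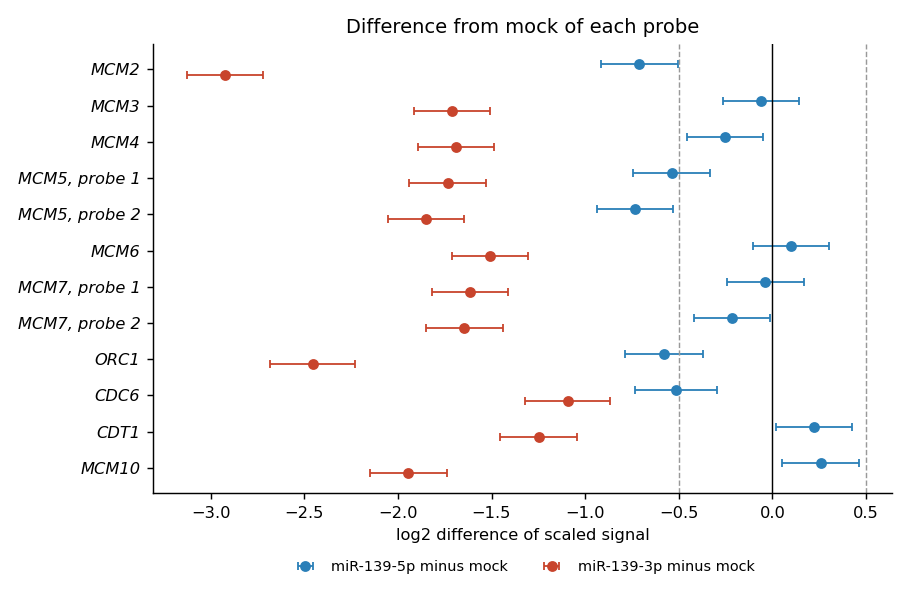
Log2 difference of scaled signal from mock (horizontal axis) of each member probe after *miR-139-5p* and after *miR-139-3p*, 1 array per condition; bars are the combined signal error of both arrays and dashed lines mark the threshold of 0.5. The 12 *miR-139-3p* points lie between -2.92 and -1.09, and the *miR-139-5p* points lie on both sides of 0.

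The 3 loading factors spanned 1.36 after *miR-139-3p*, close to the 1.42 of the ring. *ORC1* read 112 in mock, 71.3 after *miR-139-5p* and 17.7 after *miR-139-3p*, with mock highest and *miR-139-3p* lowest. Its difference was -2.46 ± 0.22 after *miR-139-3p*, or 5.49-fold lower, and -0.58 ± 0.21 after *miR-139-5p*. Ranked as above, *ORC1* was gene 76 of 12970 measured genes. With the normexp model, which used median spot signals and added an offset of 50 as well, *ORC1* was at -1.02 after *miR-139-3p* and -0.26 after *miR-139-5p*. The *miR-139-5p* value was short of the threshold with spike-in scaling too, at -0.46.

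*CDC6*, the ATPase that joins ORC to load the ring, was read at a low signal, and its difference after *miR-139-3p* was the smallest of the members with this scaling, though not with quantile normalization or the deposited log2 values (-1.44 in both, with *CDT1* at -1.09). It read 34.2 in mock, 22.8 after *miR-139-5p* and 13.9 after *miR-139-3p*. The differences were -1.09 ± 0.23 after *miR-139-3p* and -0.51 ± 0.22 after *miR-139-5p*, the latter just past the threshold. With the normexp background model neither passed it, at -0.32 and -0.15, and the *miR-139-5p* value also fell short with quantile normalization and the deposited log2 values, at -0.45 in both, and with spike-in scaling, at -0.40.

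*CDT1*, which carries the ring to the origin and is held back by geminin, read 882 in mock, 976 after *miR-139-5p* and 321 after *miR-139-3p*. Here the *miR-139-5p* array was the highest of the 3. The difference was -1.25 ± 0.20 after *miR-139-3p* and 0.22 ± 0.20 after *miR-139-5p*.

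*MCM10*, which acts after loading and is no part of the ring, followed the order of *CDT1*. It read 183 in mock, 208 after *miR-139-5p* and 41.2 after *miR-139-3p*. The difference was -1.94 ± 0.21 after *miR-139-3p*, or 3.85-fold lower, and 0.26 ± 0.20 after *miR-139-5p*. The local background of its only spot carries an outlier mark on the *miR-139-3p* array, while the spot signal carries none. With such spots left out, *MCM10* has no *miR-139-3p* value and the other 9 members stay lower. With the normexp model the value was -1.30.

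**Figure D3:**
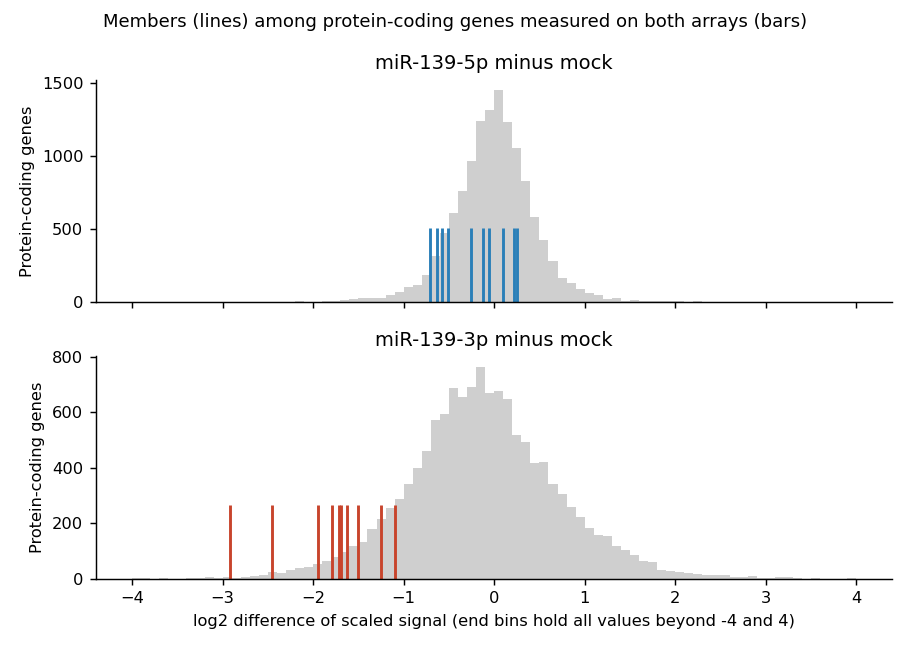
Number of protein-coding genes measured on both arrays (bars) by log2 difference from mock, in bins of 0.1, after *miR-139-5p* (upper panel) or *miR-139-3p* (lower panel), with the 10 members as coloured lines. The SD over measured genes was 0.45 in the upper panel and 0.85 in the lower, and all 10 members lie at or below -1.09 in the lower panel.

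Set directly against each other, the *miR-139-3p* array was lower than the *miR-139-5p* array for 10 of 10 members and higher for 0. Over all protein-coding genes with a value, 30.5% were lower and 23.2% higher. The median over members was -1.55, with a range from -2.21 for *MCM2* to -0.58 for *CDC6* (with quantile normalization *MCM10* was lowest, at -2.28, and *MCM2* at -2.13), and the median over all measured genes was -0.16. *MCM10* stood next to *MCM2*, at -2.20, with a signal above mock on one array and below it on the other. *ORC1* was at -1.88, *MCM3* at -1.65, *MCM6* at -1.61, *MCM7* at -1.50, *CDT1* at -1.47, *MCM4* at -1.44 and *MCM5* at -1.16. From *MCM3* to *MCM4* in this order, neighbouring values lay closer together than the error of a difference. This comparison shares its arrays with the comparisons against mock. The *CDC6* value fell short of the threshold with the normexp model, at -0.17. It also did so with the 75th percentile taken over probes well above background on all arrays, at -0.42. This left 9 of 10 members lower in each case. The shares of all genes lower and higher were then 20.6% and 9.43% with normexp, and 23.6% and 29.3% with that percentile. With spike-in scaling, 46.2% of all genes were lower, against 10 members.

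**Figure D4:**
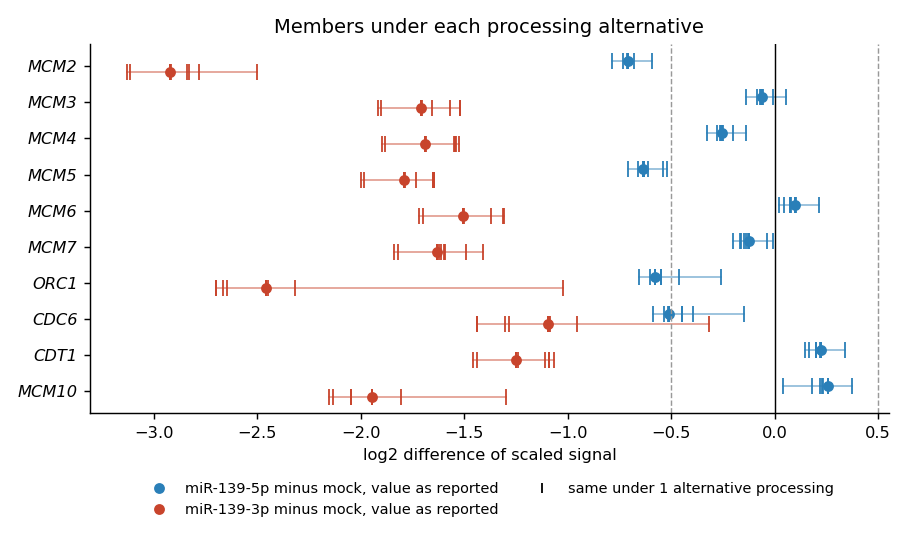
Log2 difference from mock (horizontal axis) of each member as reported (circles) and under each alternative processing (ticks), with dashed lines at the threshold of 0.5. Every *miR-139-3p* tick is below 0; the *CDC6* tick at -0.32 is the only one above -0.5, and *ORC1* spans -2.70 to -1.02.

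The other genes of origin licensing and firing, 38 in a list set by role, all had a measured value. After *miR-139-3p*, 30 of them were lower (23 with normexp) and 0 higher, with a median of -0.97. After *miR-139-5p*, 1 was lower, *GINS4* at -0.87, and 2 were higher, *DBF4* at 0.64 and *MTBP* at 0.74, with a median of 0.01. Against the *miR-139-5p* array, 30 were lower (21 with normexp) and 0 higher on the *miR-139-3p* array, with a median of -1.12. The shares over all genes, as reported and with normexp, are those given above for the members.

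By role, the partners that join the MCM ring to make the active helicase were lowest, with a median of -2.10 over *CDC45* and the 4 GINS genes and 5 of 5 lower after *miR-139-3p*. *GINS2* was the lowest of them at -2.30, with 1398 in mock, 1339 after *miR-139-5p* and 247 after *miR-139-3p*, and it too is in the study's candidate list. *GINS1* was the highest of them at -0.90. Of the firing kinases and their cyclins, 7 of 7 were lower, from *DBF4B*, an activating subunit of CDC7, at -2.28 to *CDC7* itself at -0.82. *DBF4B* was dim, at 32.7 in mock, 30.3 after *miR-139-5p* and 5.84 after *miR-139-3p*, and with normexp it and *CCNE2* were short of the threshold. Of the firing factors, 5 of 6 were lower, from *TICRR*, which brings CDC45 to the ring, at -2.04 to *DONSON* at 0.02. With normexp, *MTBP* and *RECQL4* among these were short of it, and *RECQL4* was so with the percentile over detected probes and with the brightest probe too.

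Of the 5 origin recognition subunits other than ORC1, 2 were lower after *miR-139-3p*, *ORC6* at -1.09 and *ORC3* at -0.59, and *ORC3* was short of the threshold with normexp, with the percentile over detected probes and with the brightest probe. The highest was *ORC4* at 0.15. *ORC6* read 258 in mock, 234 after *miR-139-5p* and 105 after *miR-139-3p*. Of the licensing inhibitor and ubiquitin ligase parts, 4 of 6 were lower. The lowest was *DTL*, which marks CDT1 for destruction, at -2.26, and the highest was *CUL4A*, the scaffold of the same ligase, at 0.14. Geminin (*GMNN*) was at -0.90.

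Of the related MCM proteins, 3 of 3 were lower, from *MCM8* at -1.61 to *MCM9* at -0.64. With normexp *MCM9* was short of the threshold, and with the brightest probe *MCMBP* was, at -0.38. The probes of *MCM9* differed in direction: 3 of its 4 lay below mock, the lowest at -1.38, and the other was at 0.96, with an SD of 1.08. The odd probe is assigned to another RefSeq transcript than the other 3, and whether that bears on its direction was not tested. The odd probe is the brightest by mean log2 signal over the arrays, so that *MCM9* is higher when the brightest probe stands for a gene. Of the transcription factors known for control of these genes, 4 of 6 were lower. With normexp *RBL1* was short of the threshold. *E2F3*, short of it as reported at -0.36, passed it with quantile normalization, the deposited log2 values, spike-in scaling and no scaling. *E2F2* was lowest at -2.58, with 709 in mock, 701 after *miR-139-5p* and 102 after *miR-139-3p*, *E2F1* was at -2.22, and *RB1*, which restrains E2F, was highest at 0.30.

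**Figure D5:**
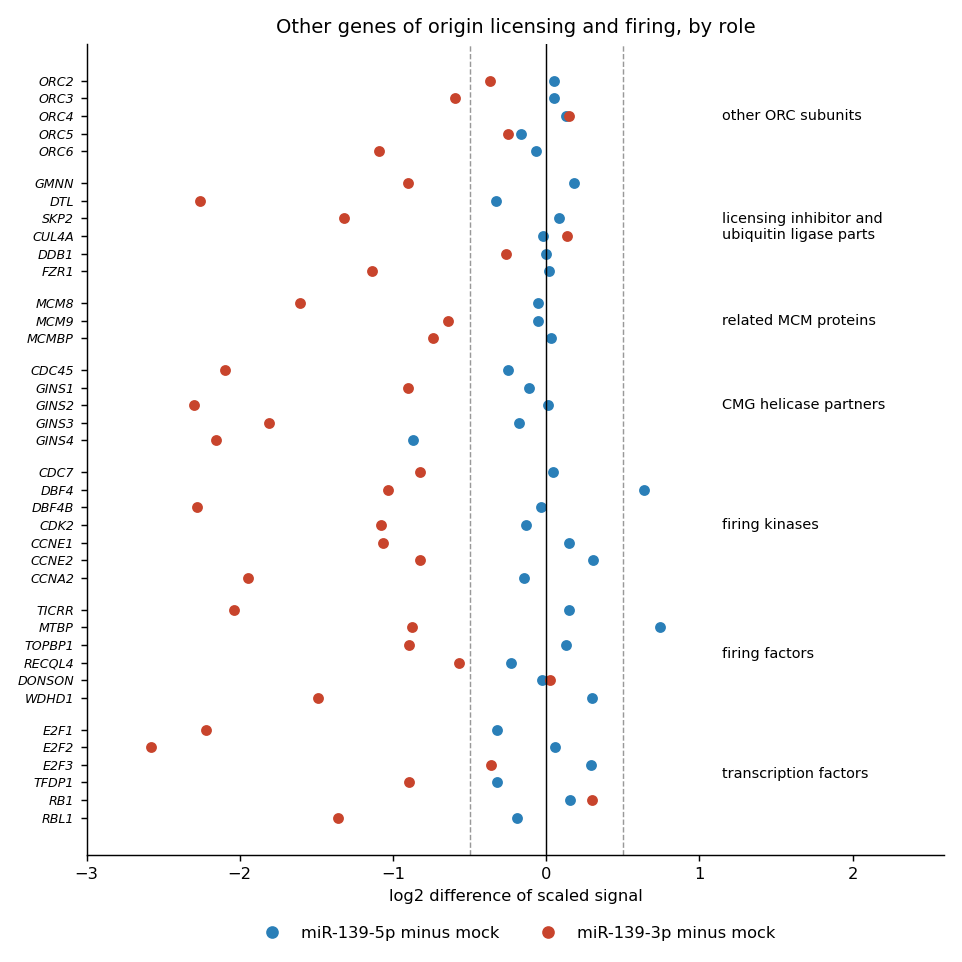
Log2 difference from mock (horizontal axis) of the 38 other genes of origin licensing and firing, grouped by role, after *miR-139-5p* and after *miR-139-3p*, 1 array per condition; dashed lines mark the threshold of 0.5. Most *miR-139-3p* points lie left of the lower threshold, with 30 of 38 past it, and most *miR-139-5p* points lie between the lines.

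E2F spellings stood in the promoter windows of 16 of the 32 genes of this list with a window, beside 5.40% of all protein-coding genes. Among the members, *ORC1* and *MCM10*, whose windows held none, were at -2.46 and -1.94 after *miR-139-3p*. The 6 members with a spelling ranged from *MCM2* at -2.92 to *CDC6* at -1.09, so the values of both kinds overlapped.

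Among 12649 genes measured on all 3 arrays, the genes nearest to the members' median pair of differences were *TLCD5*, *MNS1*, *PYCR1*, *METTL1* and *ATP5F1C*. Of these, *METTL1* is in the study's candidate list, chosen in part on lower signal on these arrays. The measure was the Euclidean distance over the 2 differences from mock, and it was 0.0254 to 0.0411 for the 5 genes. Their differences after *miR-139-3p* ran from -1.73 to -1.68 and those after *miR-139-5p* from -0.20 to -0.15. The members' own median distance from that pair was 0.482.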

How the data were processed

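RNA from A549 cells was labelled with Cy3 and hybridised to 3 Agilent arrays, with 1 array per transfection (mock, *miR-139-5p*, *miR-139-3p*). The authors deposited spot intensities from Agilent Feature Extraction 12.1.1.1, with the background subtracted and no scaling between arrays, along with the spot and background medians and quality flags. A table of log2 values per probe was also deposited. It lay within a median absolute difference of 0.00251 of quantile-normalized log2 signals computed from the spots, and served as an alternative.

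Here, each signal was divided by the 75th percentile of its array and put on the log2 scale, with the percentile taken over 60901 spots other than controls. Spots whose own signal is marked as an outlier (59 mock, 67 *miR-139-5p*, 69 *miR-139-3p*) were left out. Spots with only an outlier background were kept, a choice made after the mark on the *MCM10* spot was seen. Probes well above background on both arrays were averaged per gene, and a gene measured on 1 side had a bound. Probes were named from their accession through RefSeq (GRCh38.p14), which matched 31104 of 58201.

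With 1 array per condition no test was made, no p-value is given, and precision is limited by how few arrays there are. A log2 difference past 0.5 was counted. All members were named, and for each role of the pathway list the lowest and highest gene after *miR-139-3p*, plus the 5 genes most like the members. Genes named beyond that rule were chosen after their values were seen. The members and lists were chosen with earlier results of these data known. In total, 12 alternatives were tried, 1 of them added after seeing the data. The steps were tested on simulated data. *CENPM* was not analysed here. Python 3.11.15, numpy 2.4.6, pandas 2.3.3 and matplotlib 3.10.9 were used. The normexp correction, with an offset of 50, came from limma 3.58.1 in R 4.3.3 and ran on the median spot signals.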

Additional observations from a re-analysis of the deposited data

Results flagged for a closer look

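*DBF4*, the activating subunit of CDC7, was at -1.03 after *miR-139-3p* and at 0.639 after *miR-139-5p*, on opposite sides of mock, with signals of 182 in mock, 269 after *miR-139-5p* and 77.0 after *miR-139-3p*. *MTBP*, which works with TICRR in origin firing, was at -0.874 and 0.742, with signals of 20.0, 31.7 and 9.43 in the same order. With 1 array per condition, the difference between the transfections was not tested, and both values share the mock array. With the normexp background model both genes were below 0.5 after *miR-139-5p*, and *MTBP* was also short of the threshold after *miR-139-3p*.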

How the results depend on the processing

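No paired analysis was possible because each condition had 1 array, and no replicate could be left out. Of the counts and medians, 166 values under the alternatives stayed near those reported and 11 moved, and of the member differences, 301 stayed and 27 moved. Near means within 1.5 times for a count and, for a median or difference, within the median SD between probes of one gene (0.27 for *miR-139-3p*, 0.15 for *miR-139-5p*, 0.25 between them). No member difference past the threshold changed sign, and of those short of it only *MCM3* after *miR-139-5p* did, from -0.06 to 0.06 with E1A scaling. With the normexp background, *miR-139-5p* gave 2 lower members (*MCM2*, *MCM5*) and 0 higher pathway genes, and the median of members for *miR-139-3p* against *miR-139-5p* was -1.30. When the E1A spike-in probes set the scale, these were 2 members (*MCM2*, *MCM5*) and -1.86. With a threshold of 1, 19 pathway genes were lower after *miR-139-3p*. After *miR-139-5p* there were then 0 lower members, 0 lower and 0 higher pathway genes. The share of all genes past that threshold was not counted, so these counts have no background beside them. For scale, 10.97% of measured genes were lower than *CDC6* (-1.09) after *miR-139-3p*. After *miR-139-5p*, 5.08% were lower than *MCM2* (-0.71), the lowest member. With the brightest probe, 1 pathway gene, *MCM9*, was higher on the *miR-139-3p* array against mock and 1, again *MCM9*, against *miR-139-5p*. After *miR-139-5p*, 3 members were lower with quantile normalization and with the deposited log2 values. The cause was not tested in these cases.

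Of genes past the threshold after *miR-139-3p*, 43.4% were higher, and 30.2% with normexp, 29.1% unscaled, 29.98% with E1A and 53.6% with the percentile over detected probes. After *miR-139-5p* the share was 46.7%, and 33.8% unscaled and 66.8% with E1A. For *miR-139-3p* against *miR-139-5p* it was 43.2%, and 31.4%, 24.7% and 55.4% with normexp, E1A and detected probes. The median of all genes after *miR-139-3p* moved from -0.15 to -0.36 unscaled, -0.34 with E1A, -0.01 with detected probes and 0.05 without the filter on dim probes. After *miR-139-5p* it was 0.12 with E1A, and for *miR-139-3p* against *miR-139-5p* it was -0.47 with E1A. Relative to that median, the members' median kept between -1.75 and -1.38 after *miR-139-3p*, between -0.28 and -0.16 after *miR-139-5p*, and between -1.44 and -1.21 between the transfections. After *miR-139-3p*, normexp moved *ORC1* from -2.46 to -1.02, *CDC6* from -1.09 to -0.32 and *MCM10* from -1.94 to -1.30. That setting changed the background model, the offset and the input signal together, so their parts cannot be told apart.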

Other observations

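Among the 8 members in the promoter table (*MCM4* and *MCM5* were not searched), *MCM2*, *MCM7* and *ORC1* have a protein-coding neighbour that starts within 1000 bases and runs the opposite way. After *miR-139-3p* these neighbours differed less from mock than the members did, with *TPRA1* at -0.84 beside *MCM2* at -2.92, *AP4M1* at -0.44 beside *MCM7* at -1.63, and *PRPF38A* at -0.22 beside *ORC1* at -2.46. After *miR-139-5p* the neighbours were at -0.14, -0.55 and 0.29 in the same order. *TPRA1* was past the threshold of 0.5 after *miR-139-3p* and *AP4M1* after *miR-139-5p*, and each of the 3 pairs rests on 1 array per condition.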
